A study of Mus musculus with 36 samples.

Results

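The comparison described here set H3K27me3 in cultured neurospheres against H3K27me3 in the hippocampus of newborn mice, in control animals. Its members were the 4 control H3K27me3 samples, 2 of neurospheres and 2 of hippocampus, out of 36 samples in the series, of which 24 came with a list of enriched regions. The readout was the promoter, taken as 2 kb on either side of the start site of each of 20807 autosomal protein-coding genes. In all, 2231 promoters were marked in both neurosphere libraries and in neither hippocampus library (10.7% of all), 407 showed the opposite pattern (1.96%) and 1698 were marked in all 4 libraries (8.16%). These groups are called neurosphere-only, hippocampus-only and shared promoters below. The promoters marked in hippocampus alone included the oligodendrocyte factors Olig1, Olig2, Sox10 and Nkx2-2, the cell cycle inhibitors Cdkn2b and Cdkn1a, and the growth factor receptor Egfr. Those marked in neurospheres alone included the neuronal factors Neurog2, Emx1, Fezf2 and Scrt2, and genes of neurons, astrocytes and microglia such as Rbfox3, Gfap and C1qb. Other neuronal and astrocyte genes, namely Prox1, Pou3f2, Camk2b, Rbfox1 and Sox21, were hippocampus-only. In the knockout libraries described below, Scrt2 alone of the genes named for neurospheres kept its group. Sox10, Nkx2-2 and Cdkn1a did not keep theirs. All 39 Hox promoters were marked in all 4 libraries.

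The study deleted the DNA-binding CxxC domain of KDM2B, a subunit of a variant Polycomb complex, with an Emx1-driven recombinase, and profiled histone marks by chromatin immunoprecipitation followed by sequencing. The control libraries came from mice labelled Kdm2bfl/+ or Kdm2bfl/fl, so every control carried at least 1 floxed allele. The hippocampus samples were dissociated tissue of P0 (newborn) mice, which holds neurons, glia, progenitors, vessel cells and blood cells together. The neurospheres were hippocampal neural progenitor cells taken at the same age, kept floating in serum-free medium with FGF2 and EGF and grown for 3 generations. No label states whether the 2 libraries of a source came from separate animals or cultures, so the spread between them may be technical. In both materials a promoter marked strongly in few cells and one marked weakly in many cells cannot be told apart.

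H3K27me3 is trimethylation of lysine 27 of histone H3, written by the EZH1 or EZH2 enzyme of Polycomb repressive complex 2. It is found over silent genes, typically at CpG-rich promoters of developmental regulators, and it spreads into broad domains where silencing is stable. In the nervous system it covers the transcription factors of other lineages and of other stages, and its pattern changes as progenitors become neurons or glia. H2AK119ub1, written by Polycomb repressive complex 1, often accompanies it, whereas H3K36me2 lies over broad stretches of euchromatin and hinders PRC2 on the same histone tail.

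The promoter windows below show the range of sequences behind the groups, from CpG-dense to CpG-poor. They are given as the RefSeq record of mouse build GRCm38.p6 holds them, 250 bases before to 50 bases after the start site, in lower case with each CG dinucleotide in capitals. A CG reads the same on both strands. Olig2 and Cdkn2b were hippocampus-only, Neurog2 and C1qb were neurosphere-only, and Hoxa10 was shared.
Olig2: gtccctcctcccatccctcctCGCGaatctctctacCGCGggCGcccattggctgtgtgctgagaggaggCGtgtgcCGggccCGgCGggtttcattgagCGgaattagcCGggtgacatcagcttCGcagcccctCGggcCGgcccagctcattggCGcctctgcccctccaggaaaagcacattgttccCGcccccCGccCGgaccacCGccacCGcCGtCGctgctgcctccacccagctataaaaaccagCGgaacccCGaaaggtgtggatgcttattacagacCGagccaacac
Cdkn2b: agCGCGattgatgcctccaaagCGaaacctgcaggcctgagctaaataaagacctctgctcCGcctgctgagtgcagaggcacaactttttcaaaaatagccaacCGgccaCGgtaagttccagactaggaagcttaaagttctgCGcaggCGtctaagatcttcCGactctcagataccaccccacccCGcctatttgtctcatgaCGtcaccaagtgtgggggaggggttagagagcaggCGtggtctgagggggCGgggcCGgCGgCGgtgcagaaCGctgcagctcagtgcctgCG
Neurog2: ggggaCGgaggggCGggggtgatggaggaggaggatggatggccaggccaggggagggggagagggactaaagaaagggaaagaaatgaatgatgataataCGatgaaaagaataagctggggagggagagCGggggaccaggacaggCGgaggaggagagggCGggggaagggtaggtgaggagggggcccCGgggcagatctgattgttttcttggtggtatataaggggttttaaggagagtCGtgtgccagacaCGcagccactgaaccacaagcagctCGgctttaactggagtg
C1qb: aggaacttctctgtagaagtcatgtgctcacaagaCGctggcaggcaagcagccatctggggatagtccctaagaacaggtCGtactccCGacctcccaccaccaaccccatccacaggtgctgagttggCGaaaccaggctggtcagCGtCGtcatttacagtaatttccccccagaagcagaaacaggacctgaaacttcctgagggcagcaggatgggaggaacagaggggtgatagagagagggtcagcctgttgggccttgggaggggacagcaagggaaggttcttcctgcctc
Hoxa10: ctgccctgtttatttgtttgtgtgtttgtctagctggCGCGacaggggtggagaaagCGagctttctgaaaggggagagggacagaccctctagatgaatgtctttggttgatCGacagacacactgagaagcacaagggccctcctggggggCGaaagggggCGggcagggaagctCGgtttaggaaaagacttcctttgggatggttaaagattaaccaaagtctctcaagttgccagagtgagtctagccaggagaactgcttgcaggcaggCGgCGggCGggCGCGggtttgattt
The windows are chr16:91225300-91225599 on the plus strand for Olig2, chr4:89310983-89311282 on the minus strand for Cdkn2b, chr3:127632886-127633185 on the plus strand for Neurog2, chr4:136886151-136886450 on the minus strand for C1qb and chr6:52240805-52241104 on the minus strand for Hoxa10. The Olig2 window held 25 CG dinucleotides, a number reached by 18.4% of the 32851 promoter windows in the RefSeq table. Cdkn2b held 18 (reached by 29.7%), Hoxa10 held 12 (39.6%), Neurog2 held 10 (43.5%) and C1qb held 6 (56.4%).

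The libraries differed in how much of the genome was called. Enriched regions, called islands, were found by the authors in each library separately with the program SICER, and each carries the number of reads counted inside it. The neurosphere libraries had 42884 and 53055 autosomal islands, and the hippocampus libraries had 22281 and 12116. These islands covered 245 and 239 Mb in neurospheres and 123 and 54.6 Mb in hippocampus, a mean of 242 ± 4.16 Mb against 89.0 ± 48.6 Mb (SD, n = 2 each). The ratio of the means was 2.72 and the groups did not overlap, but 2 libraries against 2 cannot reach a two-sided exact permutation p below 0.33, and that was the value found. On the log2 scale the ratio was 1.45, and it was 0.97 without hippocampus replicate 2 and 2.15 without hippocampus replicate 1. Reads counted in islands were 14967138 and 12663511 in neurospheres and 4345082 and 1672712 in hippocampus, or 61.0, 52.9, 35.2 and 30.6 counts per kb of island. These values follow both the called length and the unknown sequencing depth, so they are not compared between libraries. A promoter without an island is therefore not a promoter shown to lack the mark. Hippocampus replicate 2, with the fewest islands and the fewest counts in them, bounds what is called in all 4. For this reason each library was also reduced to its densest islands until all covered the same 54.6 Mb, which left 3881, 7490, 6918 and 12116 islands in the same order.

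**Figure D1:**
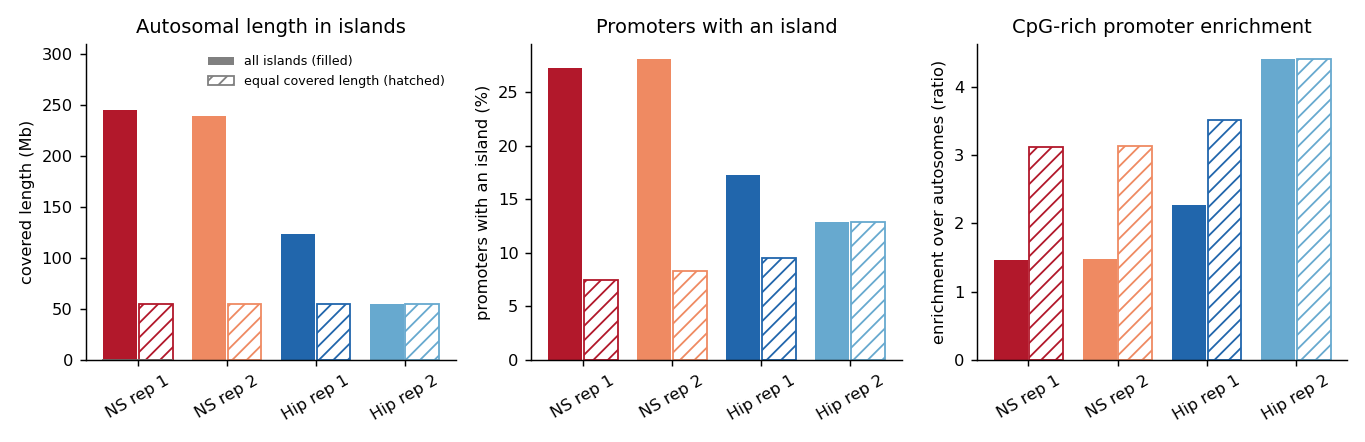
Bars give, for each of the 4 libraries (NS, neurosphere, Hip, hippocampus), the autosomal length in islands in Mb, the percent of 20807 promoters with an island, and the enrichment of islands over CpG-rich promoters as a ratio, with filled bars for all islands and hatched bars at equal covered length. With all islands the neurosphere libraries have 27.3% and 28.1% of promoters marked and the hippocampus libraries 17.3% and 12.9%, and at equal covered length the order is turned round.

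Promoters with an island numbered 5681 and 5850 in neurospheres (27.3% and 28.1%) and 3593 and 2690 in hippocampus (17.3% and 12.9%). The difference of the means was 12.6 percentage points with no overlap between the groups (exact permutation p = 0.33, two-sided, n = 2 each). At equal covered length the direction turned, with 7.49% and 8.35% of promoters in neurospheres against 9.48% and 12.9% in hippocampus. CpG-rich promoters, defined by more than 50% G and C in the 1 kb around the start and by a CpG ratio, observed against expected, above 0.6, were 9506 of the 20807. Their covered share was 1.47 and 1.48 times that of the assembled autosomes in neurospheres and 2.27 and 4.40 times in hippocampus. At equal covered length these ratios were 3.11 and 3.13 against 3.51 and 4.40, so the hippocampus libraries stayed higher without overlap (exact permutation p = 0.33, the smallest possible). In neurospheres 24.8% and 24.0% of CpG-rich promoters and 29.4% and 31.6% of the other promoters had an island. In hippocampus the order was the opposite, at 17.7% and 14.3% of CpG-rich promoters against 16.9% and 11.8% of the others.

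Islands of the same source overlapped more than islands of different sources. The shared length divided by the combined length was 0.583 between the neurosphere libraries, 0.283 between the hippocampus libraries and 0.114 to 0.189 across sources. At equal covered length these values were 0.648, 0.397 and 0.182 to 0.211. From 45.4% to 56.6% of the island length of a hippocampus library lay inside islands of a neurosphere library, whereas only 12.6% to 23.9% of the neurosphere length lay inside hippocampus islands. Long islands were a larger part of the covered length in neurospheres, although the median island was shorter there. The medians were 3.0 and 2.4 kb in neurospheres and 3.8 and 3.2 kb in hippocampus. Whether sequencing depth, which is unknown, accounts for the long islands was not tested. Islands over 20 kb held 31.2% and 23.9% of the covered length in neurospheres and 17.2% and 14.0% in hippocampus, and the longest islands were 366 kb in both neurosphere libraries, 226 kb in hippocampus replicate 1 and 177 kb in replicate 2.

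The 20807 promoters divided as follows. No library had an island at 12994 of them (62.5%). Neurosphere replicates alone accounted for 2231 with both and 1587 with 1 of them, hippocampus replicates alone for 407 with both and 632 with 1. The other promoters were marked in both sources, 1698 in all 4 libraries, 828 in both neurosphere libraries and 1 hippocampus library, 183 in both hippocampus libraries and 1 neurosphere library, and 247 in 1 of each. The equal-length islands gave 348 neurosphere-only promoters (1.67%), 701 hippocampus-only promoters (3.37%) and 755 shared promoters (3.63%), so the larger source-specific group changed from neurosphere to hippocampus. Of the full groups, 293 neurosphere-only promoters (13.1%), 242 hippocampus-only promoters (59.5%) and 755 shared promoters (44.5%) were in the same group in both settings. A promoter that holds in both is called length-matched below. The cut itself favours hippocampus here, since hippocampus replicate 2 sets the length and lost no island.

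The groups differed in sequence and in the shape of the islands. CpG-rich promoters made up 32.9% of the neurosphere-only group, 52.1% of the hippocampus-only group and 53.2% of the shared group, against 45.7% of all promoters. The median observed-to-expected CpG ratio was 0.397, 0.613 and 0.621 in the same order, against 0.569 over all. At equal covered length the CpG-rich shares were 44.8%, 50.4% and 60.3%. The median island touching a shared promoter was 16.2 and 13.4 kb long in neurospheres and 9.40 and 6.0 kb in hippocampus. It was 9.40 and 6.80 kb at neurosphere-only promoters and 6.60 and 4.20 kb at hippocampus-only promoters. Olfactory receptor genes (Olfr), a family in large CpG-poor clusters, were 2.20% of the neurosphere-only group, 0.246% of the hippocampus-only group and 0.530% of the shared group, against 5.42% of all promoters.

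**Figure D2:**
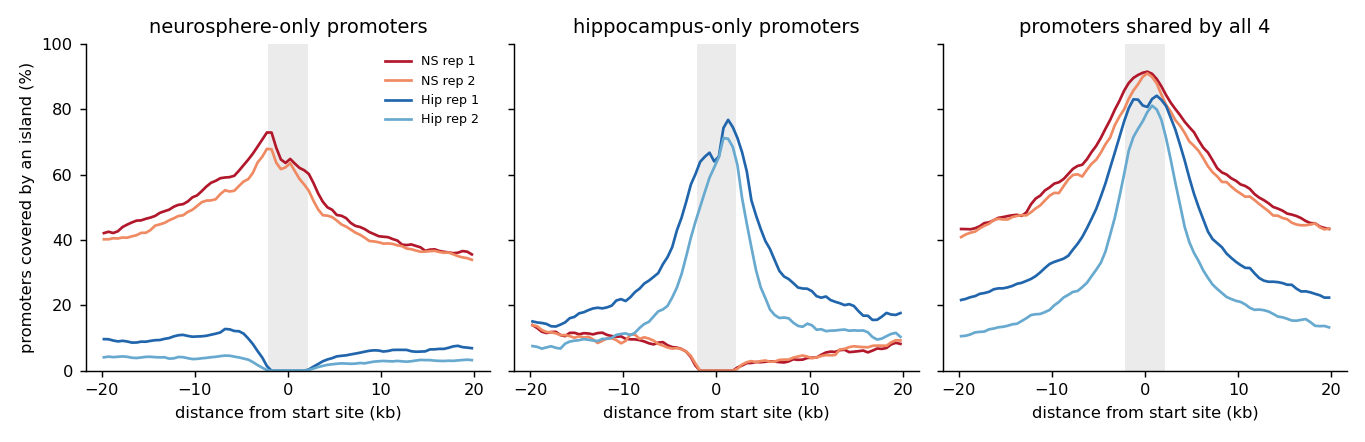
Lines give the percent of promoters of each group covered by an island in bins of 500 bp by distance from the start site in kb, for each library, with the promoter window of 2 kb on either side shaded. Hippocampus coverage of hippocampus-only promoters peaks at 76.8% and 71.2% within 1.5 kb after the start and falls to 24.3% and 13.9% at 10.25 kb. Neurosphere coverage of neurosphere-only promoters is 41.0% and 38.9% there, and library and group differ together.

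Coverage by distance from the start showed a narrow peak of hippocampus islands at hippocampus-only promoters and a broad plateau of neurosphere islands at neurosphere-only promoters. These curves differ in library as well as in group, so the 2 cannot be told apart. At shared promoters the median island was also longer in neurospheres (16.2 and 13.4 kb) than in hippocampus (9.40 and 6.0 kb). At hippocampus-only promoters the hippocampus libraries peaked at 1.25 and 0.75 kb after the start, where 76.8% and 71.2% of promoters were covered. At neurosphere-only promoters the neurosphere libraries were highest at 2.25 kb before the start, at 72.9% and 67.9%, and stood at 63.6% and 62.3% in the last 500 bp before it. At shared promoters the curves of all 4 libraries peaked within 1.5 kb of the start, at 91.5%, 91.0%, 84.2% and 81.1%. The value within 2 kb of the start is fixed by how the groups were chosen, and only the shape and the flanks are a description beyond it.

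The oligodendrocyte genes were the list with the largest share of hippocampus-only promoters. Of 12 autosomal promoters in this list, 4 were hippocampus-only (33.3%, against 1.96% of all promoters), 0 were neurosphere-only, 1 was shared (Pdgfra) and 5 had no island in any library. Olig2 and Olig1 are basic helix-loop-helix factors that specify oligodendrocyte precursors, Sox10 drives their maturation and Nkx2-2 acts with Olig2. The Olig2 promoter (chr16:91223457-91227456, mm10) was covered over 100% of its length in both hippocampus libraries, by islands of 124 and 26.2 kb with 52.6 and 52.7 counts per kb. It had no island in either neurosphere library, and the nearest one in replicate 1, 1.00 kb long, lay over 20 kb upstream. Olig1, on the same 124-kb island in hippocampus replicate 1 and on an island of 24.8 kb in replicate 2, was also fully covered in both. Nkx2-2 (chr2:147192243-147196242) was fully covered in both hippocampus libraries, by islands of 43.8 and 35.2 kb. Sox10 (chr15:79163240-79167239) was covered over 59.0% and 54.0% by islands of 9.0 and 5.8 kb. All 4 promoters were length-matched.

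**Figure D3:**
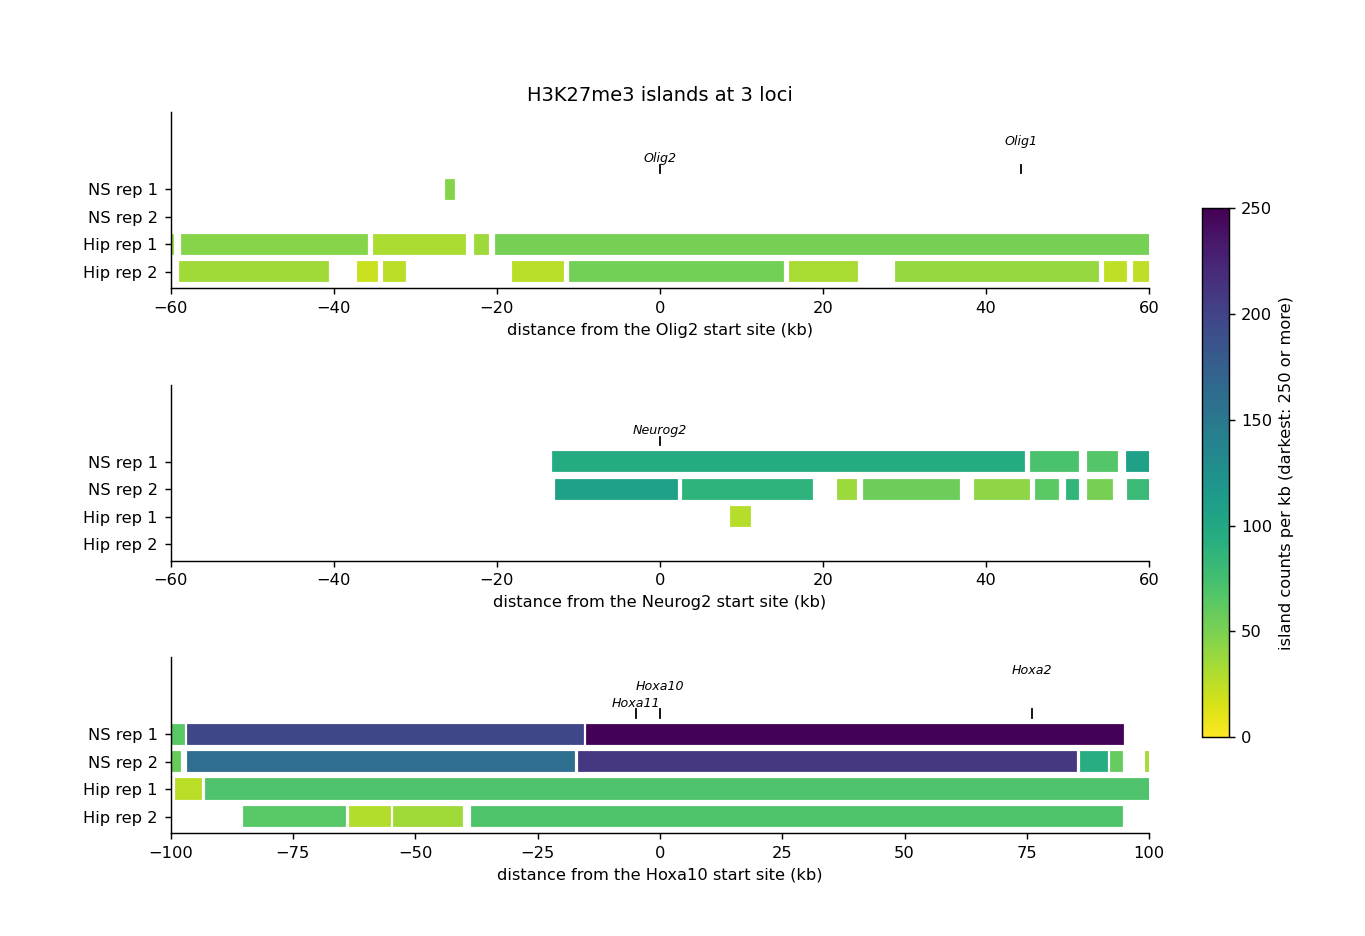
Blocks are H3K27me3 islands of the 4 libraries around the Olig2, Neurog2 and Hoxa10 start sites, by distance in kb along the direction of transcription, coloured by counts per kb, with the start sites of genes named in the text as ticks. The hippocampus libraries carry islands across Olig2 and Olig1 where the neurosphere libraries have none, the pattern at the Neurog2 start is the opposite, with 1 short island of hippocampus replicate 1 further downstream, and all 4 libraries cover the Hoxa genes.

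Of 7 cyclin-dependent kinase inhibitors, 2 were hippocampus-only (28.6%, against 1.96% of all promoters), 0 neurosphere-only and 2 shared (28.6%, against 8.16%). Cdkn2b, which encodes p15, was fully covered in hippocampus by islands of 52.0 and 55.4 kb with 60.4 and 44.9 counts per kb. Cdkn1a, which encodes p21, was covered over 84.4% and 94.4% by islands of 5.40 and 5.8 kb. Cdkn2a, the neighbour of Cdkn2b, and Cdkn1c were shared. Egfr, the receptor for the EGF added to the culture, was covered over 100% and 80.0% in hippocampus at the lower density of 26.9 and 22.9 counts per kb and was not length-matched. Of 12 Wnt receptor genes, 2 were hippocampus-only, 1 neurosphere-only (Fzd2), 1 shared and 7 without an island in any library. The shares of all promoters were 1.96%, 10.7%, 8.16% and 62.5% in the same order. Fzd10 was fully covered in hippocampus by islands of 43.6 and 17.8 kb and Fzd5 over 80.0% and 100%, both length-matched, and the ligand Wnt8a over 87.8% and 52.8%. On the same chromosome as Cdkn2b, a run of 12 hippocampus-only promoters lay between start sites at chr4:88773834 and chr4:88805531. It holds the interferon gene Ifnz and 11 predicted genes, and it was found after the values were seen. Promoters so close can lie under the same islands, so these 12 are not independent.

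Dorsal midline factors were also above the share of all promoters marked in hippocampus alone. Of 23 genes of the cortical hem, midline and choroid plexus, 4 were hippocampus-only (17.4%, against 1.96% of all promoters) and 0 neurosphere-only. Shared promoters numbered 14 (60.9%, against 8.16%). At equal covered length 2 were hippocampus-only (8.70%, against 3.37% of all). Zic1 and Zic2, zinc finger factors of the dorsal neural tube, were covered over 75.2% and 100% and over 70.0% and 100% of their promoters in the hippocampus libraries, and both were length-matched. Zic5 (21.9% and 65.0%) and the ligand gene Bmp7 (75.0% and 100%) were not. Sox21, a SOXB2 factor placed in the astrocyte list, was covered over 80.0% and 100% by islands of 37.2 and 33.6 kb. The ventral patterning factor Gsx1 was fully covered by islands of 66.8 and 26.4 kb. Prox1, the dentate granule cell factor, was covered over only 17.8% and 12.8% of its promoter by islands of 2.4 and 3.4 kb, and Pou3f2 over 30% and 19.1%. Neither was length-matched.

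By density, the 12 hippocampus-only promoters that led the length-matched group lay in 12 separate regions. They were Olig2, Zfp981, Sprr2a3, Meis1, Cdkn2b, Nkx2-2, Zfp600, Zfp503, Dnajc22, Gsx1, Hs3st3b1 and Rex2. Their lower density over the 2 hippocampus libraries ran from 51.7 counts per kb at Zfp981 and 52.6 at Olig2 down to 43.6 at Rex2. Meis1, a TALE homeodomain factor, was covered over 80.0% and 75.0% by islands of 35.6 and 22.8 kb. Zfp981, Zfp600 and Rex2 are zinc finger genes of a repeated cluster on chromosome 4, and Sprr2a3 is a cornified envelope gene of a repeated cluster on chromosome 3, so reads there may be shared with near-identical copies. These 4 promoters were not CpG-rich. Of the 12, 7 were.

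Neuronal transcription factors were above the share of all promoters marked in neurospheres alone at equal covered length, and close to it with all islands. Of 35 glutamatergic and dentate factors, 5 were neurosphere-only (14.3%, against 10.7% of all promoters) and 2 hippocampus-only (5.71%, against 1.96%). Shared ones numbered 12 (34.3%, against 8.16%), and 10 had no island in any library. At equal covered length 5 were neurosphere-only (14.3%, against 1.67% of all) and 2 hippocampus-only (5.71%, against 3.37%). There, 4 were shared (11.4%, against 3.63%). Of the 5 neurosphere-only factors, 4 were in the group in both settings. Neurog2, the proneural factor of the dorsal telencephalon, was fully covered (chr3:127631135-127635134) in both neurosphere libraries by islands of 57.8 and 14.8 kb with 97.6 and 108 counts per kb. Emx1, a dorsal telencephalic homeodomain factor, was fully covered by islands of 34.6 and 13.8 kb. Fezf2, a factor of deep-layer projection neurons, had 138 and 124 counts per kb over 25 and 20.8 kb. Scrt2, a repressor of the SNAIL family in new neurons, lay under islands of 89.6 and 32.8 kb. Neither hippocampus library had an island at any of these 4 promoters.

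Genes of differentiated cells were marked in both directions. Of 24 cytoskeletal and synaptic genes, 4 were neurosphere-only (16.7%, against 10.7% of all promoters) and 2 hippocampus-only (8.33%, against 1.96%), and 3 of the 4 were length-matched. Rbfox3, which encodes the neuronal marker NeuN, was fully covered by islands of 62.0 and 55.6 kb, Stmn2 over 64.0% in both libraries, and Celf4 over 35% and 80.0%. Shank2 was the fourth, and its start in RefSeq, at another position, was marked in all 4 libraries. Camk2b and Rbfox1 were hippocampus-only but not length-matched. Of 11 astrocyte genes, 4 were neurosphere-only (36.4%, against 10.7% of all promoters) and 1 hippocampus-only (Sox21, 9.09%, against 1.96%). At equal covered length 1 astrocyte gene was neurosphere-only (9.09%, against 1.67% of all) and 2 were hippocampus-only (18.2%, against 3.37%). Gfap, the intermediate filament of astrocytes, was covered over 100% and 97.2% by islands of 23.2 and 21.2 kb, and it was the only length-matched one of the 4. Sparcl1, Aldh1l1 and Gja1 had 38.1 to 53.2 counts per kb, and Aldh1l1 did not stay in the group when the RefSeq start was used. Of 57 receptor and channel genes, 5 were neurosphere-only (8.77%, below the share of all promoters), 3 hippocampus-only (5.26%) and 15 shared (26.3%, against 8.16%). The same list at equal covered length had 1 neurosphere-only promoter and 8 hippocampus-only ones (14.0%, against 3.37% of all). Gabra4 and Gabrb1, which face each other across 1 island of 3.20 kb, and the calcium channel gene Cacna1e were among the 5, at 43.5 to 62.2 counts per kb, and none of these 3 was length-matched.

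Some genes of microglia and blood were also marked in neurospheres alone. Of 16 such genes, 5 were neurosphere-only (31.2%, against 10.7% of all promoters), 0 hippocampus-only and 3 shared (18.8%, against 8.16%). C1qb, a complement component made by microglia, was fully covered by islands of 143 and 104.6 kb with 114 and 103 counts per kb. Runx3 was fully covered by islands of 239 and 21.6 kb, and Tmem119 by islands of 52.8 and 33.6 kb. C1qb and Runx3 were length-matched. Of 16 vascular genes, 2 were neurosphere-only (12.5%, close to the share of all promoters), 0 hippocampus-only and 8 shared (50%, against 8.16%), and at equal covered length 1 was neurosphere-only and 3 were hippocampus-only (18.8%, against 3.37%). Pdgfrb, the receptor of mural cells, was fully covered by islands of 92.4 and 87.2 kb. Of 22 matrix and TGF-beta genes, 5 were neurosphere-only (22.7%, against 10.7% of all) and 1 hippocampus-only (4.55%, against 1.96%). At equal covered length these were 0 and 2 (9.09%, against 3.37%). Col4a1 and Col4a2, which share a divergent promoter, lay under 1 island of 17.0 and 12.6 kb, and none of the 5 was length-matched.

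**Figure D4:**
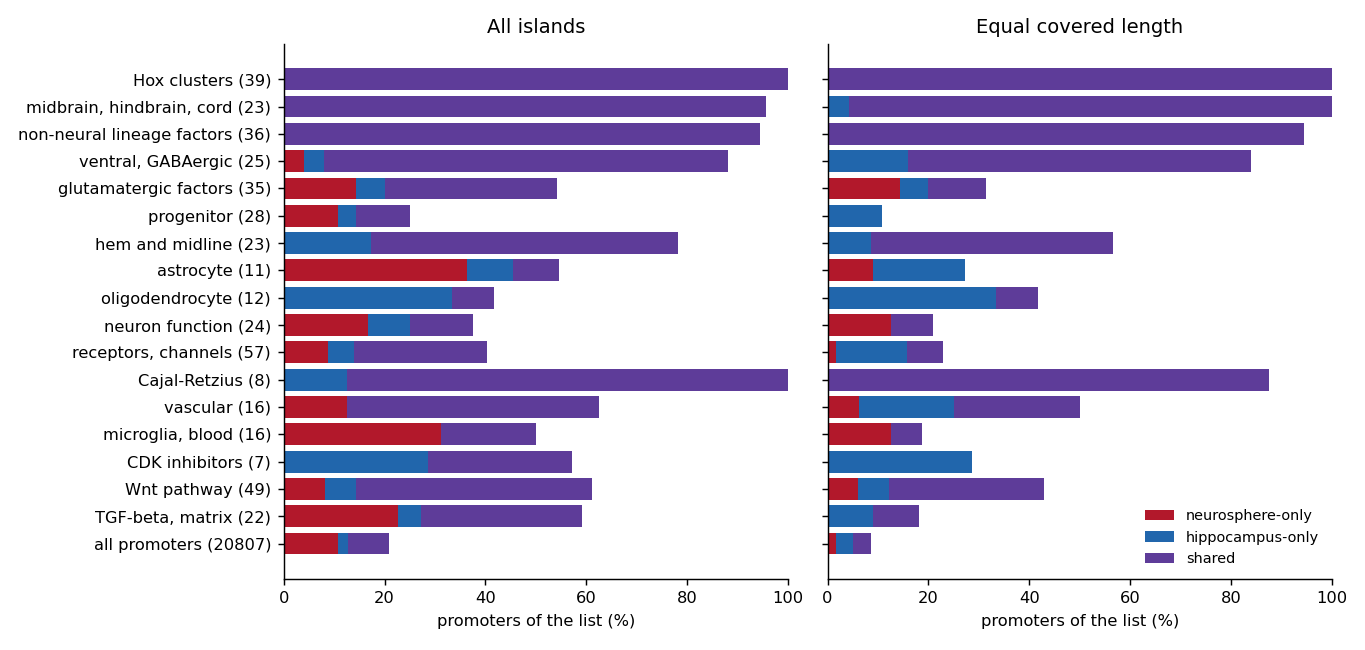
Bars give the percent of each gene list's autosomal promoters (number in brackets) that were neurosphere-only, hippocampus-only or shared, with all islands on the left and at equal covered length on the right, and with all 20807 promoters as the last bar. The oligodendrocyte list is 33.3% hippocampus-only in both panels, and the Hox list is 100% shared in both.

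Of 28 progenitor genes, 14 had no island in any library, against 62.5% of all promoters. Of the others, 3 were shared (10.7% of the list, against 8.16% of all) and 3 were neurosphere-only (Gli3, Gli2 and Prom1, also 10.7%, the share of all promoters). Egfr was the 1 hippocampus-only gene (3.57%, against 1.96%). The hedgehog effector genes Gli3 and Gli2 were fully covered in both neurosphere libraries, by islands of 5.20 to 12.4 kb. None of the 3 neurosphere-only genes was length-matched. At equal covered length 0 progenitor genes were neurosphere-only and 3 were hippocampus-only (10.7%, against 3.37% of all). Of 49 Wnt pathway genes, 4 were neurosphere-only (8.16%, against 10.7% of all promoters), 3 hippocampus-only (6.12%, against 1.96%) and 23 shared (46.9%, against 8.16%). Of the 19 ligand genes 15 were shared. Wnt7a was neurosphere-only and length-matched, at 34.0% and 29.0% coverage, whereas Fzd2, Dkk3 and Frzb were not length-matched.

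By density, the 12 neurosphere-only promoters that led the length-matched group lay in only 7 regions. Acsf3, Cbfa2t3, Pabpn1l and Trappc2l shared 1 island of 187 kb in replicate 1 and 186 kb in replicate 2 on chromosome 8, with 167 and 135 counts per kb. Arid3a and Wdr18 shared an island of 48.8 and 47.8 kb, and Aup1 and Htra2 shared one of 23.0 and 23.2 kb. Srcin1 lay under islands of 171 and 159 kb, Pou2af1, a B-cell coactivator gene, under 7.0 and 5.20 kb, and the cell cycle kinase gene Cdk6 under 4.40 and 4.20 kb. Brox was first by density, at 1278 and 1225 counts per kb, but its islands were only 0.6 kb long and covered 6.70% of the promoter. Trappc2l was covered over 11% and 0.975% of its promoter. The order by density thus put the edges of very dense domains, and 1 short island, ahead of promoters covered in full.

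Shared promoters held the regional identity and non-neural regulators. All 39 Hox promoters, 22 of 23 midbrain, hindbrain and cord factors (95.7%) and 34 of 36 factors of endoderm, mesoderm and blood (94.4%) were marked in all 4 libraries, against 8.16% of all promoters. At equal covered length the same counts were 39, 22 and 34, against 3.63% of all. Of 25 ventral and GABAergic genes 20 were shared, and of 8 Cajal-Retzius cell genes 7. The 10 promoters with the highest density ranks in all 4 libraries were Sspn, Fcgr3 and 8 promoters of the Hoxa cluster, among them Hoxa2, Hoxa10 and Hoxa11, which lay under 1 island in each library. That island was 110 and 102 kb long in neurospheres, with 248 and 211 counts per kb, and 198 and 133 kb long in hippocampus, with 70.0 and 68.6 counts per kb. Sspn rested on islands of 0.400 to 1.00 kb.

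Read counts were then compared in regions called in all 4 libraries. Merging the islands gave 64325 regions, of which 3406 were called in all 4 and were tested with edgeR's quasi-likelihood test. Regions with higher counts in neurospheres numbered 619 (18.2% of those tested) and regions with higher counts in hippocampus 577 (16.9%), at a Benjamini-Hochberg adjusted p under 0.05. Scaled by the totals in islands alone, these numbers were 486 and 722, so the share of calls higher in neurospheres moved from 51.8% by more than 10 percentage points. The regions higher in neurospheres were long, with a median of 39.6 kb against 17.0 kb for those higher in hippocampus, and 69.8% of them touched a promoter against 37.4%. The reach of the islands differed along with the counts. In the first group the median called length was 36.2 kb in neurospheres and 6.60 kb in hippocampus, and in the second 6.20 and 12 kb. With the called length as an offset, so that counts per called kb are compared, 216 and 242 regions were called in the same direction in both fits.

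The 8 regions highest in neurospheres in both fits touched the promoters of Cryaa and Sik1, Chst1, Btbd17, Cant1, Mymk, Galns, Ahnak and Adra2c. Each library's count is summed over its own islands, so a ratio of counts follows the called length and is not a fold change of signal at each base. Log2 ratios of counts ran from 4.24 at Adra2c to 6.30 ± 0.276 (SE) at Cryaa (edgeR adjusted p = 0.001567 at Cryaa). At Cryaa, a lens crystallin gene, the neurosphere libraries had 17385 and 14460 counts over 193 and 202 kb and the hippocampus libraries 81 and 50 counts over 3.20 and 1.80 kb. The difference per called kb was far smaller, at 0.80 on the log2 scale there and 1.51 at Galns, the highest of the 8. The 8 regions highest in hippocampus touched the promoters of Sprr2a1, Elmo1, Zfp991, Asb8, Prkcq, Tmem117, Hesx1 and Zfp980. Their log2 ratios ran from -5.15 ± 0.343 at Sprr2a1 to -3.84 at Hesx1 and Zfp980. At Elmo1, an engulfment and cell motility gene, the neurosphere libraries had 266 and 91 counts and the hippocampus libraries 1740 and 867. At Hesx1, a homeobox gene of the forebrain and pituitary, the counts were 177 and 89 against 954 and 351. Per called kb the 8 differences were -0.52 to -1.11.

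Among the listed genes, the 4 Hox clusters did not pass in this test, with log2 fold changes of -0.07 to -0.11 (adjusted p from 0.797 to 0.889, edgeR), but per called kb all 4 were higher in neurospheres, by 0.49 to 0.73. Over all 3406 regions tested, 18.2% were higher in neurospheres and 16.9% in hippocampus, with 216 and 242 regions in both fits. The lists hold few regions, and none was tested against these shares. Of 14 regions at glutamatergic factor promoters, 4 were higher in neurospheres and 2 in hippocampus, all 6 in both fits. Neurod1 was higher in neurospheres by 1.57 ± 0.284, Nhlh2 by 1.30 and Nr2f2 by 1.17, whereas Bcl11b (-2.08) and Pou3f1 (-2.02) were higher in hippocampus. Of 4 regions at progenitor genes, Pax6 (-2.53 ± 0.363) and Sox1 (-1.63) were higher in hippocampus in both fits, and the other 2 did not pass. At Pax6, a radial glial factor, the neurosphere libraries had 445 and 260 counts and the hippocampus libraries 687 and 539, before scaling for the totals. Of 22 Wnt pathway regions, 7 were higher in neurospheres and 2 in hippocampus. The receptor gene Fzd2 had the highest value, 4.29, which fell to 0.22 per called kb and did not pass there, whereas the feedback gene Nkd1 (2.47) and the nuclear effector gene Lef1 (2.42) passed in both fits. Wnt2 and Dkk1, the 2 higher in hippocampus, did not pass per called kb. The region of C1qa, C1qb and C1qc was higher in neurospheres by 2.39 ± 0.225 in both fits, although parts of it were called in hippocampus. The medians over these lists were -0.09 for Hox, 0.78 for glutamatergic factors and 0.21 for the Wnt pathway, against 0.00 over all regions tested.

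The groups were then looked up in libraries that had not been used to form them. The H3K27me3 libraries of the knockout, labelled Kdm2bEmx1-delta-CxxC, come from other samples of the same 2 sources. Neurosphere-only promoters had an island in 83.5% and 65.9% of cases in the knockout neurosphere libraries and in 12.6% and 42.7% in the knockout hippocampus libraries, where all promoters had one in 30%, 23.1%, 14.7% and 27% of cases in the same order. In knockout hippocampus replicate 2 they were thus above all promoters too. Their mean coverage was 50.7% ± 9.20 against 13.3% ± 10.8 (SD, n = 2 each). Hippocampus-only promoters had an island in 19.9% and 9.09% against 63.1% and 88.9%, with a mean coverage of 7.25% ± 4.45 against 56.7% ± 20.7. Both differences kept the direction of the controls without overlap, at 37.4 and -49.4 percentage points (exact permutation p = 0.33, two-sided, the smallest possible). With the knockout libraries reduced to equal covered length they were 17.0 and -53.7 percentage points, the first less than its value with all islands. Shared promoters were covered over 77.9% ± 7.60 and 79.4% ± 12.8. The difference of -1.58 percentage points was smaller than the spread between replicates (exact permutation p = 1.0).

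At the level of single promoters, 637 of the 2231 neurosphere-only promoters (28.6%) were again neurosphere-only in the knockout libraries, where 5.07% of all promoters were. Of the 407 hippocampus-only promoters 182 (44.7%) were again hippocampus-only, against 2.22% of all, and of the 1698 shared promoters 1258 (74.1%) were again shared, against 8.67%. Among the listed genes 13 of 38 neurosphere-only and 13 of 25 hippocampus-only promoters kept their group. Among others, Olig2, Olig1, Cdkn2b, Meis1, Sox21, Egfr, Fzd5 and Fzd10 kept the hippocampus-only pattern, and Scrt2, Celf4, Shank2, Runx3 and Pdgfrb the neurosphere-only pattern. Neurog2, Emx1 and Fezf2 did not, since knockout hippocampus replicate 2, with islands at 27% of all promoters against 14.7% in replicate 1, had islands over 85.0%, 89.1% and 100% of their promoters where replicate 1 had none. Nkx2-2, Sox10 and Gsx1 had islands in both knockout hippocampus libraries and also in knockout neurosphere replicate 1. Rbfox3 had none in any knockout library. Cdkn1a had none in knockout hippocampus replicate 1, Gfap none in knockout neurosphere replicate 2, and C1qb had one over 74.7% of its promoter in knockout hippocampus replicate 2, so these 3 also left their groups.

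**Figure D5:**
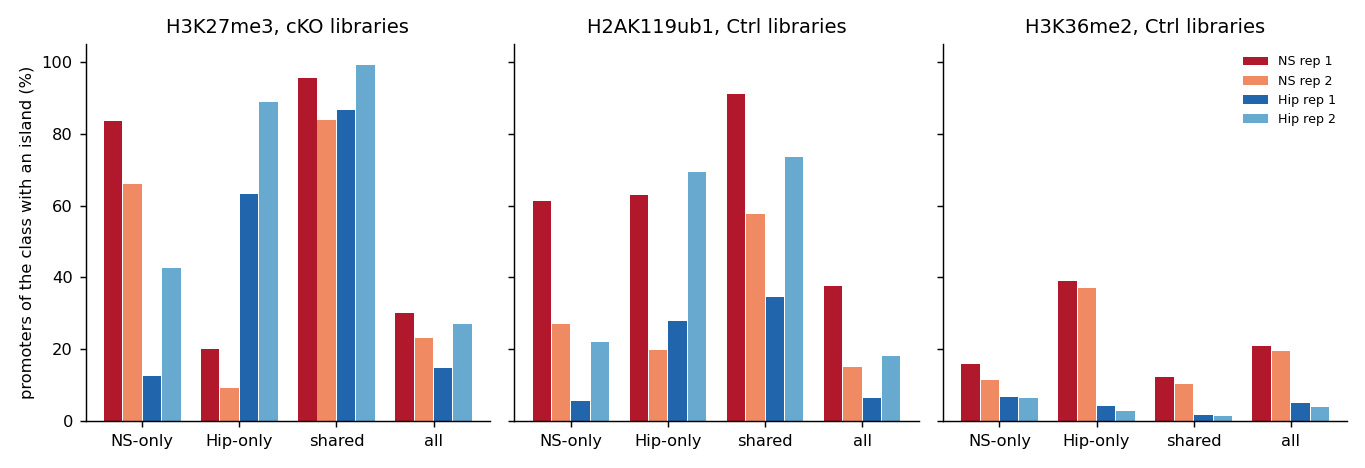
Bars give the percent of promoters in each group, and of all 20807, that had an island in the knockout (cKO) H3K27me3 libraries and in the control H2AK119ub1 and H3K36me2 libraries of neurospheres (NS) and hippocampus (Hip). In neurospheres H3K36me2 is present at 39.1% and 37.1% of hippocampus-only promoters against 21.0% and 19.6% of all promoters.

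Of the 2 other marks of the control samples, H3K36me2 set the hippocampus-only group apart in neurospheres. H2AK119ub1, given below, did not separate it there from the neurosphere-only group. H3K36me2 islands were found in the neurosphere libraries at 39.1% and 37.1% of hippocampus-only promoters, at 15.8% and 11.3% of neurosphere-only promoters and at 12.4% and 10.2% of shared promoters, against 21.0% and 19.6% of all. In the hippocampus libraries, H3K36me2 was at 4.18% and 2.70% of hippocampus-only promoters, 6.63% and 6.36% of neurosphere-only promoters and 1.65% and 1.35% of shared promoters, against 4.92% and 3.97% of all. Sox10 was covered by H3K36me2 over 100% of its promoter in both neurosphere libraries, Cdkn1a over 100% in both, Nkx2-2 over 81.0% and 34.0% and Cdkn2b over 66.0% in both. In hippocampus Sox10, Nkx2-2 and Cdkn2b had none, and Cdkn1a was covered over 50% in replicate 2 alone. Olig2, Olig1 and Egfr had no H3K36me2 island in any of the 4 libraries.

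H2AK119ub1 varied widely between replicates. Its libraries covered from 44.9 to 319 Mb, and within each source the library with more covered length had the larger share of marked promoters. Shared promoters had an H2AK119ub1 island in 91.0% and 57.8% of cases in neurospheres and in 34.5% and 73.4% in hippocampus. Hippocampus-only promoters had one in 62.9% and 19.7% of cases in neurospheres and in 27.8% and 69.3% in hippocampus, against 37.5%, 15.1%, 6.33% and 18.1% of all promoters. Neurosphere-only promoters had one in 61.4% and 27.1% against 5.56% and 22.1%. At Olig1, H2AK119ub1 covered the whole promoter in both neurosphere libraries, where no H3K27me3 island was called, and 50.7% and 100% of it in hippocampus. At Fezf2 it was present in all 4 libraries, with 100% coverage in neurospheres and 60% and 100% in hippocampus.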

How the data were processed

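H3K27me3 was profiled by chromatin immunoprecipitation and sequencing in 2 control neurosphere and 2 control hippocampus libraries. The authors trimmed reads with cutadapt, aligned them to mm10 with Bowtie2 2.4.5, removed duplicates and called islands per library against input with SICER (window 200 bp, gap 600 bp, FDR 0.01). The deposited files give, per island, its position and the count of reads inside it, and nothing outside islands, so total depth is unknown and the counts have no library scaling. Groups came from the labels.

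Promoters were 2 kb on either side of GENCODE vM21 starts, and an overlap of 1 bp counted as marked. Counts in regions that all 4 libraries shared were compared with edgeR 4.0.16 (quasi-likelihood, TMM, Benjamini-Hochberg), and library values with two-sided exact permutation tests (scipy 1.17.1). On simulated data for the 3406 regions, 99% of 4-fold and 37% of 2-fold changes were recovered with 2 false calls. The simulated counts varied less between replicates than the real ones, whose fitted biological coefficient of variation was 0.293. Differences in called length were not simulated, so the real data may do less well. Members and gene lists were chosen with earlier results of these data known. Named genes were the 12 source-specific promoters of each source that held at equal covered length and were densest in their lower library, the 10 shared ones whose lowest density rank was highest, and up to 4 per gene list and source-specific group. Named regions were the 8 largest differences in each direction called in both fits and touching a promoter, and predicted (Gm, Rik), Olfr and Vmn genes were counted but not named by that rule. Listed genes' regions were chosen for mention after their values were seen. DESeq2 1.42.0, other scalings, filters, start sites and left-out libraries were tried as alternatives. Values of some genes that this rule picks are not reported here.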

Additional observations from a re-analysis of the deposited data

How the results depend on the processing

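Of 84 recomputed values, 62 kept their direction and were counted as the same, 20 were counted as moved and 2 reversed. A value counted as the same could still shift. For example, the CpG-rich enrichment was -0.62 on the log2 scale without hippocampus replicate 2, against -1.18 with all libraries. With each library reduced to equal covered length, the difference in marked promoters reversed from 12.6 to -3.29 percentage points (-4.75 with the islands of highest count first), the CpG-rich enrichment moved to -0.34 on the log2 scale, and neurosphere-only, hippocampus-only and shared promoters numbered 348, 701 and 755 (279, 745 and 462 by highest count). There, the neurosphere-only difference in the knockout libraries was 17.0 percentage points, and 204 and 175 regions were higher in neurospheres and hippocampus, out of only 902 tested. Requiring 50% of the promoter covered gave a difference of 8.33 percentage points and 258 hippocampus-only promoters. Leaving out 1 library in turn gave 468 to 856 hippocampus-only promoters, the highest without hippocampus replicate 2, and 324 to 1098 regions higher in neurospheres and 320 to 877 higher in hippocampus. The region counts were 354 and 329 without neurosphere replicate 1, 324 and 320 without neurosphere replicate 2, 1098 and 863 without hippocampus replicate 1, and 1074 and 877 without hippocampus replicate 2. In those fits a lone library is assumed to vary like the other source. With a replicate block 669 and 648 regions were called. The deviations of same-numbered libraries had a correlation of 0.0122 between the sources. With 2 libraries per source this value cannot decide whether the replicate numbers pair samples, and no label states a pairing. The RefSeq starts, an alternative chosen after seeing the data, gave 2226, 398 and 1722 promoters. Causes were not tested. Hippocampus replicate 2 had the fewest counts in islands, 1672712, and its total depth is unknown. It bounds what was called in both hippocampus libraries.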

Other observations

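Beyond single promoters, some neurosphere-only promoters lay in long runs of neighbouring genes, taken as start sites at most 200 kb apart. The 2231 promoters of this group lay in 1946 distinct merged regions. The genes given here were chosen after their values were seen. The longest run held 30 promoters of the protocadherin clusters on chromosome 18, whose genes encode cell surface adhesion proteins chosen differently by single neurons. Chromosome 10 held runs of 24 and 20 promoters, the first with the keratin-associated gene Krtap12-1 and the integrin gene Itgb2. A run of 18 promoters on chromosome 2 held the Bpif family and the DNA methyltransferase gene Dnmt3b, and another of 17 on the same chromosome held lipocalin and odorant-binding protein genes. The longest hippocampus-only run had 12 promoters, in a group of only 407 promoters, so the lengths of runs are not compared between groups. Genes of one run can lie under the same islands and are not independent.

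Among merged islands, regions called in 1 source alone were shorter in neurospheres than in hippocampus. Of 64325 merged regions, 16635 were called in both neurosphere libraries alone, with a median of 4.20 kb, and 10.6% of them touched a promoter. The 1502 called in both hippocampus libraries alone had a median of 6.40 kb and 24.0% touched a promoter. The 3406 called in all 4 had a median of 19.2 kb and 56.6% touched one, against 10.9% of all merged regions.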
